A study of Mus musculus with 8 samples.

Results

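The collagen genes of cultured mouse hippocampal neurons were examined, that is every gene of the deposited gene table whose GRCm38 symbol has the form Col, a number, a and a number. There were 44 such genes among 45706, all annotated as protein-coding. The neurons came from hippocampi of C57/Bl6 wild-type mouse embryos at embryonic day 18 and were kept for 12 to 14 days in vitro. Cells received 1 µM melanin-concentrating hormone (MCH), a hypothalamic neuropeptide, or the H2O vehicle for 4 h, and RNA was sequenced from 4 wells per treatment, numbered replicates 1 to 4. All wells had also received 10 µM 5-fluoro-2′-deoxyuridine from day 3, an agent used to hold back dividing cells. According to the methods, 2 independent cultures were used with 2 wells per treatment each, the culture of each replicate is not given, and the labels carry an Alzheimer’s disease model tag although the genotype they give is wild type. The *P* values below therefore measure the spread between these wells only.

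Collagens are secreted or membrane-bound proteins of 3 chains wound into a triple helix, each chain encoded by its own gene. Fibrillar collagens form the cross-striated fibrils of connective tissue, type IV collagen forms the sheet of basement membranes, and in brain most of both are made by cells of the vessels, meninges and choroid plexus and by glia. A few collagens are made by neurons, among them the membrane-spanning type XXV chain, found in amyloid plaques, and the type XIX chain, which takes part in the formation of inhibitory synapses in the hippocampus. The 44 genes were grouped as fibrillar (11 genes), basement membrane (8), neuronal (2), beaded filament, that is type VI (6), fibril-associated collagens with interrupted triple helices or FACIT (8), transmembrane (3), short chain (3) and other (3).

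Of the 44 genes, 40 had at least 10 estimated counts in at least 4 of the 8 wells, and 36 had them in all 8. The same 40 passed the filter of edgeR and were tested among 14962 genes. The 4 genes below the rule were *Col13a1*, with 5 to 14 counts per well, *Col6a6*, with 4 to 12, *Col4a3*, with 1 to 7, and *Col24a1*, with 0 counts in 7 wells and 3 in MCH-treated replicate 1. Just inside the rule stood *Col17a1*, with 4 to 17 counts, and *Col9a2*, with 5 to 41, which reached 10 counts in 5 wells each. Library totals ranged from 26083936 to 31844861 estimated counts, so that 3 counts, taken here as the least that can be told from absence, stood for 0.0958 to 0.116 CPM, that is counts relative to the TMM-scaled library size. This floor covers counting error only. The cultures had the neuronal markers fixed for the check, 7 of 7 above the filter and 6634 to 7332 CPM in sum.

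Sequence before the start of 4 genes is shown, because they carry the main contrasts described below: the head-to-head pair *Col4a5* and *Col4a6*, the most abundant type VI gene *Col6a1* and the most abundant neuronal gene *Col25a1*. Each is the part of the 250 bases before the RefSeq start (GRCm38.p6) that lies outside exons of the gene, on the strand of the gene, and capitals mark the motifs GGGCGG (GC box), CCAAT and TATAAA on either strand.
Col4a5, chrX:141475169-141475384, plus strand: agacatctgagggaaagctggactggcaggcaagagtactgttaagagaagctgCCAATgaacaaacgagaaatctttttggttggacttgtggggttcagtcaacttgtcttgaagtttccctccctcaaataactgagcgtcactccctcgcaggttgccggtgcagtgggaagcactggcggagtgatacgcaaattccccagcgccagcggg
Col4a6, chrX:141474077-141474326, minus strand: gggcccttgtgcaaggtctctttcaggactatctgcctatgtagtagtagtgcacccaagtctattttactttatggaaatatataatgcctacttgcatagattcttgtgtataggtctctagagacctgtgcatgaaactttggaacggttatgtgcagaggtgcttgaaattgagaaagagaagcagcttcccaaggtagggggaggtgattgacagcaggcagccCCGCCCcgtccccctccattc
Col6a1, chr10:76726169-76726294, minus strand: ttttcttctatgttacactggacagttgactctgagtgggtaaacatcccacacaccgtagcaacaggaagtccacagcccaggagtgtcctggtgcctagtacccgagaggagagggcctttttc
Col25a1, chr3:130180595-130180844, plus strand: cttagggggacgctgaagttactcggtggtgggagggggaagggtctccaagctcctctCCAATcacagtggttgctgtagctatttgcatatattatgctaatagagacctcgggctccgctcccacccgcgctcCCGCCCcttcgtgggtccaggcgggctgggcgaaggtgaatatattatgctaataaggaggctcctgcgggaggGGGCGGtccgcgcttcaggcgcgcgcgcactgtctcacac
*Col4a5* and *Col4a6* start 1343 bases apart and run in opposite directions. The RefSeq start used for *Col25a1* lies inside the annotated gene (chr3:130131501-130599877, plus strand). Its stretch is therefore not the sequence before the first base of that annotation. Over the full 250 bases *Col25a1* had 2 GC boxes and 1 CCAAT, *Col4a5* had 1 of each (its GC box in the stretch left off), *Col4a6* had 1 GC box and *Col6a1* had none of the 3 motifs. A window was found for 35 of the 44 genes, with 38 starts in all. GGGCGG stood in 57.9% of these 38 windows and in 32.7% of all 32851 RefSeq windows of that length, CCAAT in 34.2% and 33.8%, and TATAAA in 13.2% and 12.4%. These matches describe letters only, and no binding was measured.

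The level of the collagen genes spanned several orders of magnitude. In TPM, the relative number of transcripts corrected for their length, *Col26a1* had the highest mean at 82.5, followed by *Col25a1* at 37.6, *Col6a1* at 26.1, *Col4a2* at 14.5, *Col4a1* at 11.7 and *Col19a1* at 9.21. These 6 genes held 78.6% of the TPM of all 44. A mean of 10 TPM or more was reached by 5 genes and of 1 TPM or more by 22. The value of *Col26a1*, which encodes a secreted collagen with an EMI domain, depended on a 280-base transcript that had 13.8 reads per well but 24.0 TPM, and its mean without that transcript was 58.5 TPM. The ranges of neighbours in this order overlapped in many places. *Col4a2* exceeded *Col4a1* in TPM in all 8 wells, with a ratio of *Col4a1* to *Col4a2* between 0.615 and 0.979 (median 0.819).

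**Figure D1:**
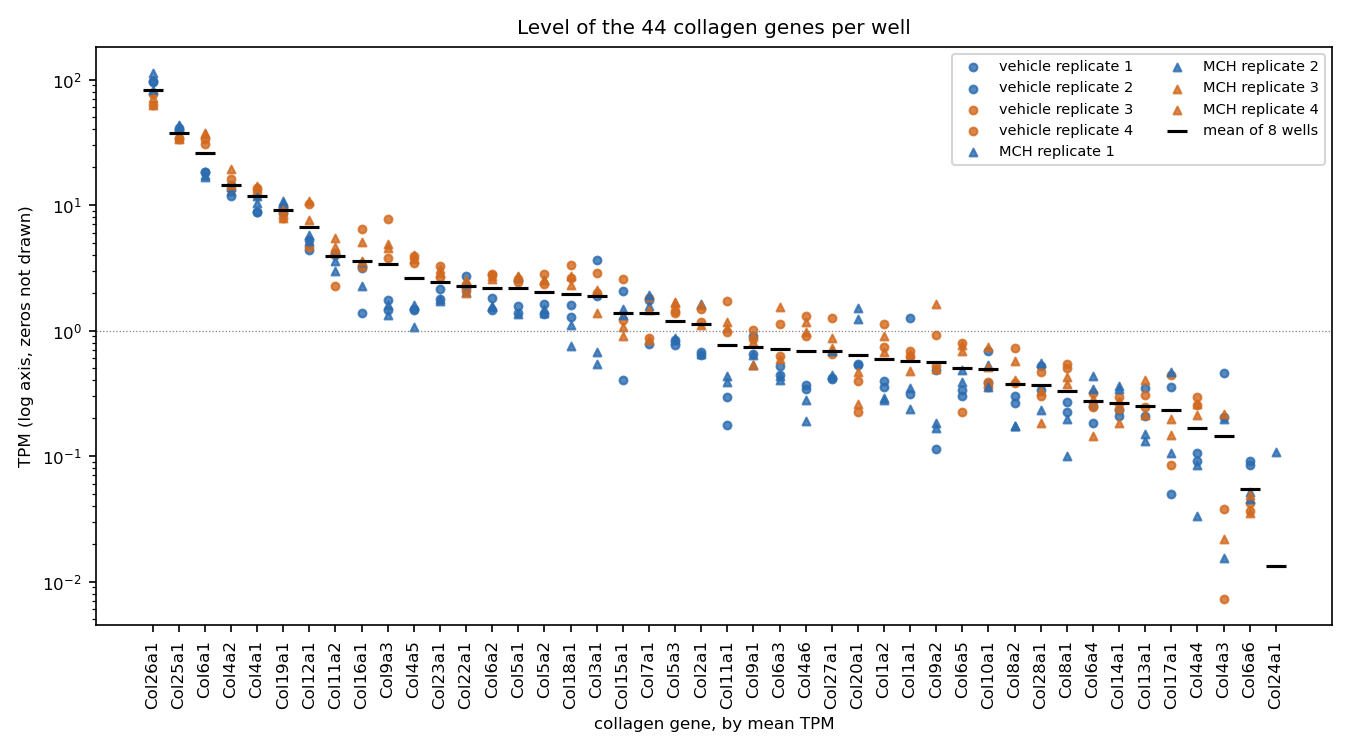
TPM of each collagen gene in each of the 8 wells on a log axis, ordered by the mean of 8 wells (black bars), circles for vehicle and triangles for MCH, blue for replicates 1 and 2 and orange for replicates 3 and 4. *Col26a1*, with a mean of 82.5 TPM, and *Col25a1*, with 37.6, lead, 22 genes have a mean of 1 or more, and wells at 0, among them 7 of the 8 wells of *Col24a1*, are not drawn.

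MCH against vehicle was the comparison the study was designed for. None of the 40 genes tested passed the threshold (0 genes, against 0.234% of all 14962 genes, quasi-likelihood test of edgeR, *P* values adjusted after Benjamini and Hochberg). At an unadjusted *P* under 0.05 there were also 0 of 40 (8.5% of all genes). DESeq2 and limma voom called 0 as well. Log2 fold changes were positive for 22 genes and negative for 18, with a median of 0.013 beside −0.003 over all genes, and ranged from −0.51 for *Col8a1* to 0.55 for *Col17a1*. In size, 38 of the 40 were under 0.5.

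Values by well are given below in the order of replicates 1 to 4. *Col26a1* had 76.7, 77.2, 73.5 and 79.2 CPM with vehicle and 66.7, 67.2, 76.8 and 75.9 CPM with MCH. Its fold change had the lowest adjusted *P* of the 40 genes (edgeR, −0.10 ± 0.056 s.e. on the log2 scale, adjusted *P* = 0.707), and the lower values were those of MCH-treated replicates 1 and 2, 66.7 and 67.2 CPM, while MCH-treated replicates 3 and 4 lay within the vehicle range. *Col22a1*, a FACIT of tissue junctions, had 9.88, 9.64, 9.66 and 10.4 CPM with vehicle and 9.17, 10.2, 9.93 and 10.2 CPM with MCH. Its wells overlapped throughout, with a log2 fold change of −0.00075 ± 0.069 (s.e.). The interval of 2 standard errors around the MCH effect lay within 0.5 log2 units of 0 for 8 of the 40 genes, among them *Col22a1*, *Col25a1*, *Col19a1*, *Col4a1*, *Col4a2* and *Col26a1*, and within 1 unit for 25.

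Adding the split between replicates 1 and 2 and replicates 3 and 4 as a block narrowed the errors, from a median s.e. of 0.32 to 0.16, and the interval then lay within 0.5 for 20 genes and within 1 unit for 37. The number called stayed at 0 of 40, while 4.46% of all genes were called. With an unadjusted *P* under 0.05 there were 4 collagen genes (18.2% of all genes). They were *Col4a1*, higher by 0.13 ± 0.051 (log2, s.e.; adjusted *P* = 0.159, edgeR), *Col18a1*, at −0.34 ± 0.13 (adjusted *P* = 0.171), *Col26a1*, at −0.10 ± 0.041 (adjusted *P* = 0.194), and *Col8a1*, at −0.54 ± 0.25 (adjusted *P* = 0.261). With the replicate number as the block, 0 of 40 passed (3.98% of all genes) and the lowest adjusted *P* among collagen genes was 0.131.

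Between replicates the differences were larger. The first principal component of the deviations from the treatment means, 59.8% of their variance, set replicates 1 and 2 of both treatments apart from replicates 3 and 4. This split was read from these counts in an earlier analysis, so its calls describe these wells, and neither the labels nor the methods say what parts them. With treatment in the model, 28 of 40 collagen genes differed between replicates 3 and 4 and replicates 1 and 2, beside 34.7% of all genes. Higher in replicates 3 and 4 were 26 (18.6% of all genes) and lower were 2 (16.1% of all genes). Of the 40, 14 were called with a log2 fold change above 1 (5.63% of all genes). The median over the 40 was 0.76 against −0.005 over all genes. For 24 genes the 4 wells of one side lay entirely beyond the 4 wells of the other (29.6% of all genes). All 28 had the same sign in vehicle-treated and in MCH-treated wells. Among the 36 genes with at least 10 counts in every well, 25 differed, 23 of them higher in replicates 3 and 4, with a median of 0.70. The shares of all genes above are over every gene tested, without a length offset. With an offset for the transcript lengths of each well 18 of 40 were called by edgeR, 16 of them among the 28. No share of all genes is given here for that fit, so the 18 cannot be set beside the 34.7% above. *Col12a1*, *Col15a1*, *Col16a1*, *Col19a1*, *Col1a1*, *Col27a1*, *Col2a1*, *Col3a1*, *Col4a2*, *Col5a1*, *Col6a3* and *Col9a2* did not pass there, none of the 28 changed sign, and *Col26a1* (−0.51, adjusted *P* = 0.0101) and *Col20a1* (−1.37, 0.0222) were called there only.

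**Figure D2:**
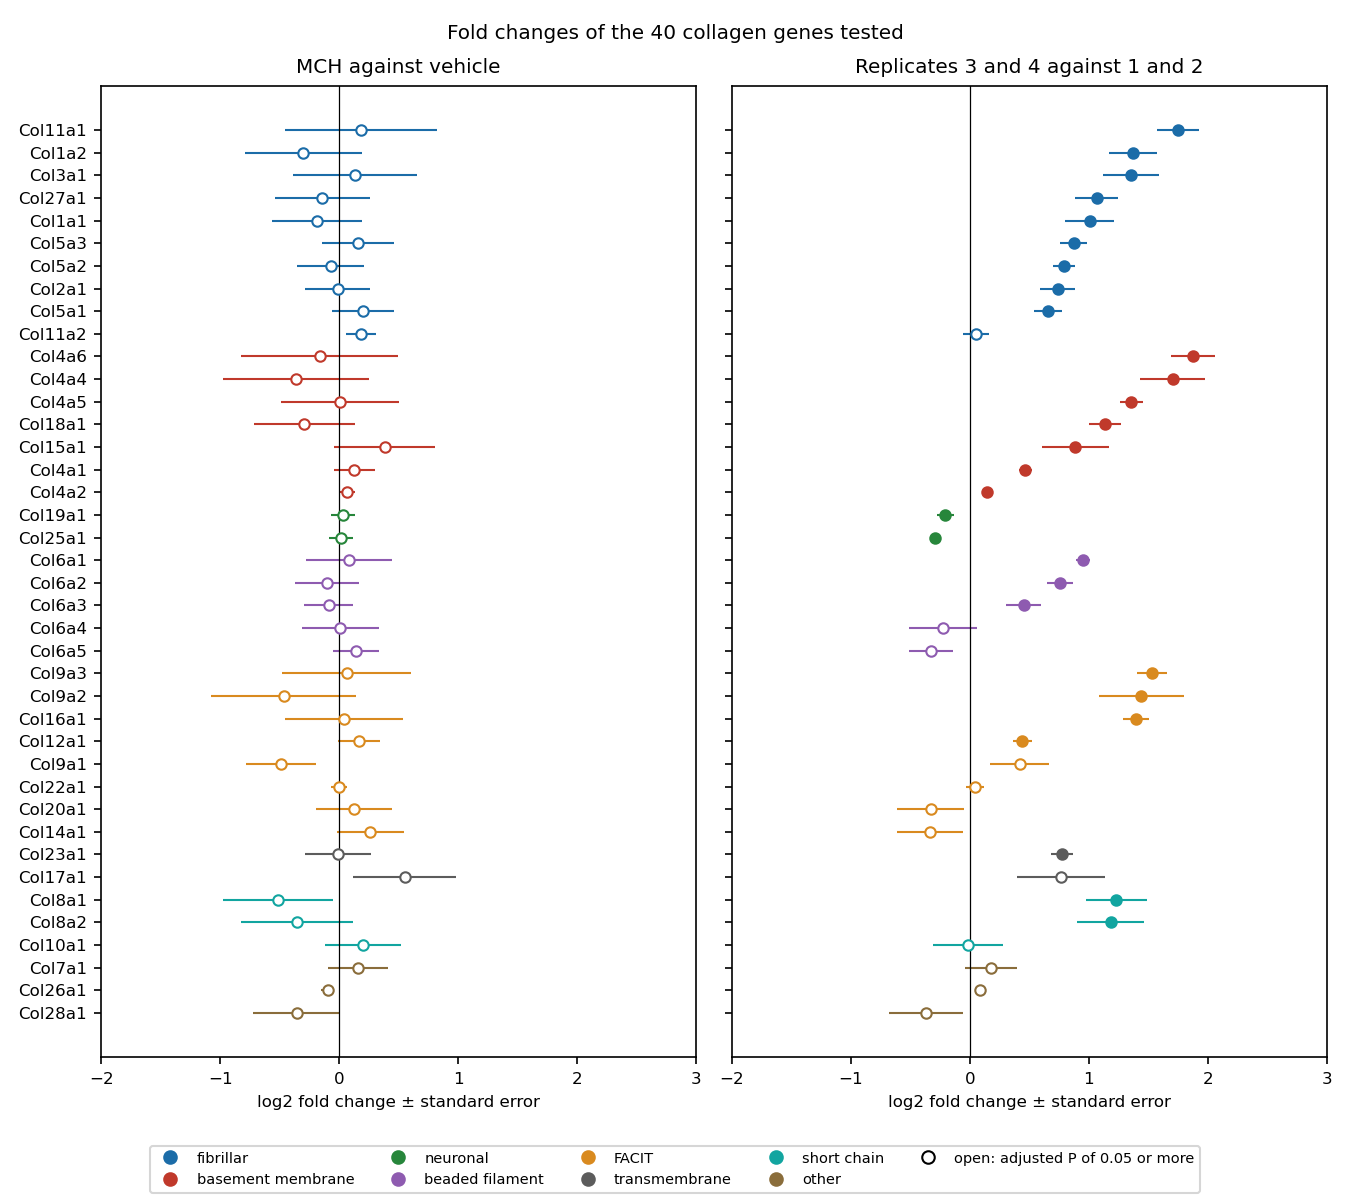
Log2 fold change with its standard error for the 40 collagen genes tested, MCH against vehicle on the left and replicates 3 and 4 against 1 and 2 on the right, coloured by class, with filled points for an adjusted *P* under 0.05 in edgeR. All points on the left are open and 28 on the right are filled, 26 of them to the right of 0 and the 2 neuronal genes to the left.

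By class, the basement membrane collagens were higher in replicates 3 and 4 for 7 of 7 genes tested (median log2 fold change 1.14) and the fibrillar collagens for 9 of 10 (0.94). The beaded filament group had 3 of 5 higher, the FACIT group 4 of 8, the transmembrane group 1 of 2 and the short chain group 2 of 3. The group of other collagens had 0 of 3. Both neuronal collagens were lower. Without the offset, 18.6% of all genes tested were higher in replicates 3 and 4 and 16.1% lower. With the length offset, 4 of 10 fibrillar, 5 of 7 basement membrane, 2 of 5 beaded filament, 1 of 8 FACIT, 1 of 2 transmembrane and 2 of 3 short chain genes were higher, and 1 of 2 neuronal, 1 of 8 FACIT and 1 of 3 other genes were lower. These counts have no share of all genes beside them and cannot be set against a background. Summed over its genes, the fibrillar class stood at 30.3 to 34.9 CPM in replicates 1 and 2 and at 50.6 to 57.9 in replicates 3 and 4, the basement membrane class at 89.0 to 101 and 121 to 135, and the neuronal class at 137 to 148 and 115 to 122. By level, the median log2 fold change was 0.15 among the 5 genes of 10 TPM or more, 0.78 among the 17 between 1 and 10 TPM and 0.89 among the 18 under 1 TPM. The 5 were of several classes: *Col26a1* (0.09), *Col25a1* (−0.29), *Col6a1* (0.95), *Col4a2* (0.15) and *Col4a1* (0.47). Level and class are therefore not separated in these medians.

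Type IV collagen is the main sheet-forming collagen of basement membranes. *Col4a1* (chr8:11198423-11312826, minus strand) and *Col4a2* (chr8:11312805-11449287, plus strand) start head to head and encode the 2 chains found in most basement membranes. *Col4a1* had 33.5, 33.7, 50.7 and 45.7 CPM with vehicle and 35.6, 41, 52.9 and 49.3 CPM with MCH. All 4 wells of replicates 3 and 4 lay above all 4 of replicates 1 and 2 (edgeR, log2 fold change 0.47 ± 0.051 s.e., adjusted *P* = 6.12e-07). *Col4a2* had 44.7, 43.4, 53.8 and 48.3 CPM with vehicle and 46.6, 50.1, 52.3 and 50.2 CPM with MCH. Here the sides overlapped, since vehicle-treated replicate 4, at 48.3 CPM, lay below MCH-treated replicate 2, at 50.1, and the difference was small (log2 fold change 0.15 ± 0.046 s.e., adjusted *P* = 0.0156). It lost its call without vehicle-treated replicate 2 (adjusted *P* = 0.0845), vehicle-treated replicate 3 (0.0941) or MCH-treated replicate 3 (0.0562), and with the length offset, at 0.25. The partner genes on chromosome X rose further. *Col4a5* (chrX:141475385-141689234) had 5.50, 4.89, 12 and 12.1 CPM with vehicle and 5.05, 3.94, 13.4 and 12.2 CPM with MCH. *Col4a6* (chrX:141165403-141474076) had 1.39, 1.30, 4.86 and 3.42 CPM with vehicle and 1.05, 0.713, 4.39 and 3.65 CPM with MCH. The gap between the sides was wide for both, with log2 fold changes of 1.36 ± 0.096 (s.e., adjusted *P* = 1.02e-09) and 1.88 ± 0.18 (adjusted *P* = 1.11e-07, edgeR), and the latter was the largest among the collagens. Their TPM ratio, *Col4a5* over *Col4a6*, ran from 4.01 to 5.71 in replicates 1 and 2 and from 3.05 to 3.85 in replicates 3 and 4.

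The third pair, *Col4a3* and *Col4a4*, encodes chains known from the kidney glomerulus. *Col4a4* had 0.620, 0.544, 1.48 and 1.71 CPM with vehicle and 0.192, 0.488, 1.49 and 1.23 CPM with MCH, a separation of the sides at a low level (log2 fold change 1.71 ± 0.27 s.e., adjusted *P* = 5.91e-05, edgeR). *Col4a3*, below the rule, had 0.194, 0.254, 0.0353 and 0.186 CPM with vehicle and 0.0639, 0.0751, 0.0346 and 0.105 CPM with MCH, and was not tested. These were 5, 7, 1 and 5 counts with vehicle and 2, 2, 1 and 3 with MCH. Values of 1 or 2 counts lie under the floor of 3, so no difference between treatments can be read from them. *Col18a1*, whose product releases endostatin, had 4.57, 3.77, 7.51 and 7.88 CPM with vehicle and 3.10, 2.14, 7.65 and 6.49 CPM with MCH. All wells of replicates 3 and 4 were higher (log2 fold change 1.14 ± 0.14 s.e., adjusted *P* = 1.84e-06). Its relative *Col15a1* had 0.968, 1.20, 3.0 and 1.97 CPM with vehicle and 0.990, 2.70, 2.59 and 3.05 CPM with MCH. MCH-treated replicate 2, at 2.70 CPM, stood among the wells of replicates 3 and 4, and the difference (edgeR, log2 fold change 0.89 ± 0.28 s.e., adjusted *P* = 0.0283) lost its call in 4 of the 8 fits that left out 1 well (adjusted *P* 0.0732 to 0.0991, without vehicle-treated replicate 1, 2 or 3 or MCH-treated replicate 4) and with the length offset, where it was 0.11. A 405-base transcript gave 1.80 of its 2.07 TPM in vehicle-treated replicate 1, from 4.27 reads, and 1.01 of 1.32 in MCH-treated replicate 1, from 2.85. In vehicle-treated replicate 4, transcripts of 404 and 345 bases gave 0.89 and 1.07 of 2.59 TPM.

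Among fibrillar collagens the genes of type V led in mean CPM with *Col11a2*, and the genes of type I, the main fibril of skin and bone, were scarce. In mean TPM *Col3a1*, at 1.88, stood above the type V gene *Col5a3*, at 1.19. *Col11a2* had 7.55, 6.85, 7.65 and 6.54 CPM with vehicle and 6.39, 9.27, 8.96 and 7.86 CPM with MCH. It was the fibrillar gene that did not pass (log2 fold change 0.05 ± 0.11 s.e., adjusted *P* = 0.770, edgeR), and its wells overlapped throughout. Its partner in cartilage fibrils, *Col11a1*, had 0.775, 1.30, 5.18 and 4.27 CPM with vehicle and 1.88, 1.69, 4.50 and 5.06 CPM with MCH. All wells of replicates 3 and 4 exceeded those of replicates 1 and 2 by the widest margin of the class (log2 fold change 1.75 ± 0.18 s.e., adjusted *P* = 2.22e-07). *Col5a1* had 7.55, 6.81, 12.3 and 8.58 CPM with vehicle and 6.48, 8.67, 12.6 and 12.9 CPM with MCH. *Col5a2* had 6.16, 5.18, 10.6 and 8.80 CPM with vehicle and 5.14, 5.48, 9.20 and 9.41 CPM with MCH. *Col5a3* had 2.90, 2.68, 4.72 and 5.02 CPM with vehicle and 2.97, 2.89, 5.67 and 5.58 CPM with MCH. These type V chains, which help to start fibrils, rose by 0.66, 0.79 and 0.87 on the log2 scale (s.e. 0.12, 0.093 and 0.11), without overlap for *Col5a2* and *Col5a3* and with overlap for *Col5a1*, where MCH-treated replicate 2 at 8.67 CPM passed vehicle-treated replicate 4 at 8.58.

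The type I genes were lower still. *Col1a1* had 1.05, 1.01, 2.08 and 2.30 CPM with vehicle and 1.15, 0.788, 2.15 and 1.58 CPM with MCH. *Col1a2*, its partner in the type I trimer, had 1.20, 1.09, 2.22 and 3.38 CPM with vehicle and 0.831, 0.863, 2.01 and 2.70 CPM with MCH. Neither overlapped between the sides, with log2 fold changes of 1.01 ± 0.20 (s.e., adjusted *P* = 0.000591) and 1.37 ± 0.20 (adjusted *P* = 1.92e-05, edgeR), though *Col1a1* stood at 0.44 with the length offset and was not called there. In vehicle-treated replicate 2, 1.4 reads of a 337-base transcript gave 0.974 of the 1.26 TPM of *Col1a1*. Its other wells of replicates 1 and 2 stood at 0.237 to 0.347 TPM, and replicates 3 and 4 at 0.478 to 0.685. The part of that transcript in the offset value was not tested. *Col3a1*, the reticular fibre collagen and a neighbour of *Col5a2* on chromosome 1, had 1.55, 2.46, 3.28 and 5.98 CPM with vehicle and 2.08, 1.69, 6.50 and 4.28 CPM with MCH. Its 2 wells within a side differed widely, up to 5.98 against 3.28 CPM in vehicle-treated replicates 4 and 3, but the sides did not overlap (log2 fold change 1.36 ± 0.24 s.e., adjusted *P* = 0.00112). With the length offset it stood at 0.67 and was not called. The cartilage collagen *Col2a1* had 1.86, 1.78, 3.53 and 2.86 CPM with vehicle and 1.85, 1.99, 3.15 and 2.95 CPM with MCH. *Col27a1* had 1.12, 1.81, 3.91 and 2.82 CPM with vehicle and 1.47, 1.54, 3.18 and 2.60 CPM with MCH. Both were higher in all wells of replicates 3 and 4, by 0.74 ± 0.15 and 1.07 ± 0.18 (log2, s.e.).

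Type VI collagen forms beaded filaments around cells from the chains of *Col6a1* and *Col6a2* and a further one such as that of *Col6a3*. *Col6a1* had 42, 42.1, 76.1 and 69.5 CPM with vehicle and 37.6, 39.6, 82.1 and 83.8 CPM with MCH. Replicates 3 and 4 of both treatments lay at 69.5 to 83.8 CPM and replicates 1 and 2 at 37.6 to 42.1, with no overlap (log2 fold change 0.95 ± 0.058 s.e., adjusted *P* = 1.90e-08, edgeR). *Col6a2* had 3.25, 4.10, 6.17 and 6.28 CPM with vehicle and 3.45, 3.42, 5.61 and 6.0 CPM with MCH. *Col6a3* had 2.79, 2.39, 3.0 and 3.31 CPM with vehicle and 2.11, 2.14, 3.49 and 3.05 CPM with MCH. *Col6a2* rose by 0.76 ± 0.11 and *Col6a3* by 0.45 ± 0.14 (log2, s.e., adjusted *P* = 0.0191), and the latter lost its call without MCH-treated replicate 1, 2 or 3 (adjusted *P* 0.0552 to 0.0838) and in DESeq2 (0.0537), and with the length offset, at 1.05. The 3 genes were far apart in level: the TPM ratio of *Col6a1* to *Col6a2* had a median of 11.8 and ran from 9.95 to 14.2 over the wells, and that of *Col6a1* to *Col6a3* had a median of 39.8. The alternative chains in place of that of *Col6a3* did not pass the test. *Col6a4*, at 0.597 to 1.43 CPM, and *Col6a5* had log2 fold changes of −0.23 and −0.33 (adjusted *P* = 0.582 and 0.190), although for *Col6a5* the 4 wells of replicates 3 and 4, at 1.20 to 1.45 CPM, all lay below those of replicates 1 and 2, at 1.51 to 1.80. With the length offset the value of *Col6a5* was 0.64, of the opposite sign and not called.

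**Figure D3:**
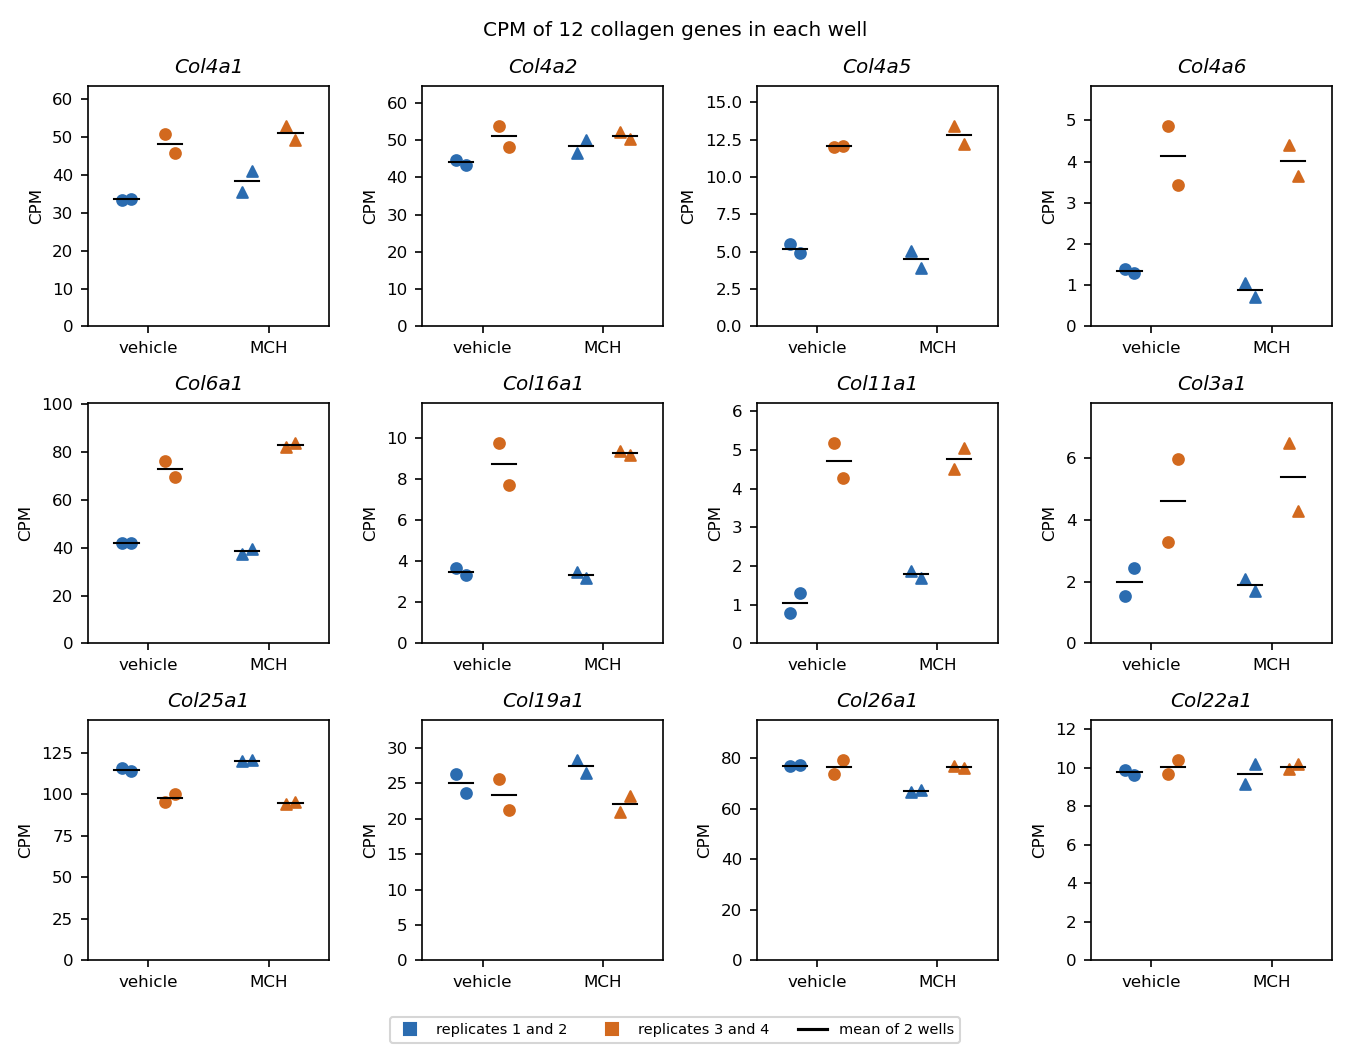
CPM of 12 collagen genes in each well, by treatment and with replicates 1 and 2 in blue and 3 and 4 in orange, bars marking means of 2 wells, each axis starting at 0. *Col6a1* lies between 37.6 and 42.1 CPM in replicates 1 and 2 and between 69.5 and 83.8 in replicates 3 and 4 in both treatments, *Col25a1* runs the other way, and *Col26a1* and *Col22a1* show no such step.

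FACIT collagens decorate fibrils. *Col12a1*, the most abundant of them, had 14.3, 12.1, 18.8 and 15.4 CPM with vehicle and 15.1, 13, 18.9 and 21 CPM with MCH, and differed little but without overlap (log2 fold change 0.44 ± 0.08 s.e., adjusted *P* = 0.000266). *Col16a1* had 3.68, 3.30, 9.73 and 7.69 CPM with vehicle and 3.45, 3.19, 9.34 and 9.13 CPM with MCH. *Col9a3*, a chain of cartilage type IX collagen, had 2.75, 2.36, 5.75 and 7.36 CPM with vehicle and 2.04, 2.44, 7.54 and 7.02 CPM with MCH. Both stood more than 1 log2 unit higher in replicates 3 and 4 (1.40 ± 0.11 and 1.53 ± 0.13, s.e., adjusted *P* = 3.24e-09 and 1.33e-08, edgeR), and *Col16a1* stood at 0.83 with the length offset, without a call. The other type IX gene called, *Col9a2*, had 0.775, 0.181, 1.45 and 0.817 CPM with vehicle and 0.287, 0.263, 1.0 and 0.772 CPM with MCH, with overlap and few counts (log2 fold change 1.44 ± 0.36 s.e., adjusted *P* = 0.00360), while *Col9a1* at 0.74 to 1.67 CPM was not called (0.42 ± 0.25, adjusted *P* = 0.205). *Col22a1*, *Col14a1* (0.423 to 0.958 CPM) and *Col20a1* (0.520 to 1.24 CPM) were not called either, with log2 fold changes of 0.05, −0.33 and −0.33.

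Of the membrane-bound collagens, *Col23a1* had 5.27, 5.73, 10.4 and 8.58 CPM with vehicle and 5.46, 5.59, 9.10 and 9.69 CPM with MCH, all of replicates 3 and 4 above the rest (log2 fold change 0.78 ± 0.091 s.e., adjusted *P* = 1.16e-06). *Col17a1*, an epithelial adhesion collagen, had 0.155, 0.217, 0.564 and 0.260 CPM with vehicle and 0.319, 0.413, 0.450 and 0.597 CPM with MCH, with overlapping sides (0.77 ± 0.37, adjusted *P* = 0.123). The short chain genes *Col8a1* and *Col8a2* encode the network of vessel walls and the cornea. *Col8a1* had 0.775, 0.652, 1.45 and 1.56 CPM with vehicle and 0.287, 0.563, 1.21 and 1.05 CPM with MCH. *Col8a2* had 0.736, 0.652, 0.917 and 1.75 CPM with vehicle and 0.415, 0.413, 0.969 and 1.37 CPM with MCH. Their sides did not overlap, at 1.23 ± 0.26 and 1.19 ± 0.28 (log2, s.e., adjusted *P* = 0.000782 and 0.00237, edgeR). *Col10a1*, the collagen of growth plate cartilage, had 0.658, 1.20, 0.599 and 0.669 CPM with vehicle and 0.894, 0.601, 0.865 and 1.23 CPM with MCH, with no step between the sides (−0.01 ± 0.29). In the remaining group *Col26a1* was not called (0.09 ± 0.041, adjusted *P* = 0.106). With the length offset its sign was the opposite (−0.51), and the 280-base transcript *Col26a1-204* held 0.926% to 1.73% of its reads in replicates 1 and 2 and 0% to 0.531% in replicates 3 and 4. The anchoring fibril gene *Col7a1* had 3.33, 2.32, 1.90 and 2.30 CPM with vehicle and 2.08, 2.03, 3.74 and 3.16 CPM with MCH. *Col28a1* had 1.24, 0.797, 1.09 and 0.706 CPM with vehicle and 0.543, 1.28, 0.761 and 0.421 CPM with MCH. Both overlapped between the sides, with adjusted *P* values of 0.571 and 0.398. Of the 12 genes not called, 8 had a mean under 2 CPM, as did 6 of the 28 called.

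Both neuronal collagens were lower in replicates 3 and 4. *Col25a1* (chr3:130131501-130599877, plus strand) had 116, 114, 95.1 and 100.3 CPM with vehicle and 119.9, 120.5, 94 and 95.1 CPM with MCH. The 4 wells of replicates 3 and 4 lay at 94 to 100.3 CPM and those of replicates 1 and 2 at 114 to 121, without overlap (log2 fold change −0.29 ± 0.033 s.e., adjusted *P* = 9.54e-07, edgeR). *Col19a1* (chr1:24261890-24587472, minus strand) had 26.4, 23.6, 25.6 and 21.2 CPM with vehicle and 28.3, 26.5, 21 and 23.2 CPM with MCH. Its sides overlapped, with vehicle-treated replicate 3 at 25.6 CPM above vehicle-treated replicate 2 at 23.6, and its call (log2 fold change −0.20 ± 0.069 s.e., adjusted *P* = 0.0304) was lost in 6 of the 8 fits that left out 1 well (adjusted *P* 0.0670 to 0.120, all except those without vehicle-treated replicate 2 or 3). The transcript make-up of *Col25a1* was steady: *Col25a1-202*, a coding transcript, held 64.3% to 68.9% of its reads in the 8 wells, and *Col25a1-204*, annotated as a target of nonsense-mediated decay, 26.6% to 29.6%. Of the reads of *Col19a1*, 47.4% to 56.9% went to *Col19a1-203*, a transcript without an annotated coding sequence.

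Whether MCH acted differently on the sides was tested by the interaction. It was called for 0 of 40 collagen genes (0.0267% of all genes) and had an unadjusted *P* under 0.05 for 6 of them (7.6% of all genes), namely *Col6a1*, *Col7a1*, *Col6a4*, *Col26a1*, *Col11a1* and *Col18a1*, with a lowest adjusted *P* of 0.260 for *Col6a1*. In *Col6a1* the MCH-treated wells lay below vehicle in replicates 1 and 2 (a log2 difference of −0.12) and above it in replicates 3 and 4 (0.19). In *Col7a1* these differences were −0.36 and 0.60. The interaction of *Col6a1* was called without MCH-treated replicate 2 (adjusted *P* = 0.0415, a fit chosen after seeing the data), and those of *Col6a1* (0.0487) and *Col7a1* (0.0446) without a filter on low counts. The sign of the MCH difference was opposite on the sides for 16 of the 40 genes.

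The genes that serve collagens were read as 7 lists that hold 76 genes, 64 of them tested. With MCH, 0 were called by edgeR (0.234% of all genes), DESeq2 or limma voom, and 0 had an unadjusted *P* under 0.05 in edgeR (8.5% of all genes). With the block on the sides 0 were called (4.46% of all genes) and 10 of 64 had an unadjusted *P* under 0.05 (18.2% of all genes). With the replicate number as the block 0 were called (3.98% of all genes). An unadjusted *P* under 0.05 was then found for 9. No share of all genes is given for that count, so it cannot be set against a background. Between the sides 43 were higher in replicates 3 and 4 and 8 lower (18.6% and 16.1% of all genes). Of 17 genes for chain modification and folding, 10 were higher and 2 lower. *Serpinh1*, the collagen chaperone of the endoplasmic reticulum, stood at 6.58 to 7.09 CPM in replicates 1 and 2 and at 26.5 to 34.4 in replicates 3 and 4 (2.17 ± 0.067 log2, s.e., adjusted *P* = 2.42e-14, edgeR). *P4ha3*, a prolyl hydroxylase subunit, and *Fkbp10*, a procollagen isomerase, rose by 1.95 and 1.53. The enzyme subunit *P4hb*, also a general disulphide isomerase, was lower by −0.17 and the prolyl hydroxylase *P3h2* by −0.49. For secretion and processing the list was split, 3 higher and 3 lower of 9. The procollagen proteinase *Bmp1* rose by 0.68 and its relative *Tll2* by 0.67, while *Adamts2* stood at 0.68 without passing (adjusted *P* = 0.0966), and the export receptors *Mia2* and *Mia3* and the proteinase *Tll1* fell by 0.14, 0.16 and 0.66.

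Crosslinking enzymes of the lysyl oxidase family were higher for 3 of 3 tested (*Loxl3* at 1.26, *Loxl2* at 0.93 and *Loxl1* at 0.86 log2), and fibril-binding proteoglycans for 6 of 6. Over all genes tested, 18.6% were higher in replicates 3 and 4 and 16.1% lower. Decorin, *Dcn*, stood at 12.9 to 17.9 CPM in replicates 1 and 2 and 41.2 to 43.5 in replicates 3 and 4 (1.43 ± 0.081), *Prelp* rose by 1.43 and *Ogn* by 2.48 from a low level. Collagen receptors were higher for 6 of 8, led by *Adgrg6* (1.42), which binds type IV collagen, the integrin subunit *Itga1* (1.21) and the type III collagen receptor *Adgrg1* (0.87). Degradation and uptake had 3 of 5 higher, the membrane metalloproteinase *Mmp14* at 1.77, *Mmp2* at 1.38 and the uptake receptor *Mrc2* at 0.89. Among basement membrane partners 12 were higher and 3 lower of 16. The laminin chains *Lamb2* (1.49) and *Lama4* (1.42) and the linker *Nid2* (1.34) led, while *Lama1*, *Lamb1* and *Lamb3* were lower by −0.29, −0.18 and −0.65.

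Markers of other cells moved with the same split, and in bulk RNA a change in the number of cells of a type cannot be told apart from a change in RNA per cell. The counts below stand beside 34.7% of all genes called, 18.6% higher in replicates 3 and 4 and 16.1% lower. All 8 astrocyte markers were higher in replicates 3 and 4, their sum at 349.5 to 473 CPM in replicates 1 and 2 and 1532 to 1742 in replicates 3 and 4, with a median log2 fold change of 2.00. Fibroblast and meningeal markers were higher for 4 of the 5 tested of 10 (17.7 to 22.9 against 49.9 to 54.1 CPM, most of it *Dcn*, also counted above), with *Foxc2* at 0 and *Dpt*, *Tbx18* and *Slc6a13* under 10 counts. Pericyte and smooth muscle markers were higher for 3 of 5 tested of 7 (16.9 to 22.2 against 43.6 to 46.9 CPM). Endothelial markers were higher for 2 of 3 tested of 8 (2.83 to 3.87 against 5.09 to 6.28 CPM), with 5 under 10 counts in every well. Choroid plexus markers were higher for 4 of 5 (24.2 to 32.4 against 62.5 to 80.1 CPM) and those of the oligodendrocyte lineage for 3 of 5 tested of 7 (56.9 to 67.1 against 125 to 146 CPM), with *Sox10* and *Mog* at 0. Microglial markers were higher for 2 of 3 tested of 6 (4.60 to 6.19 against 7.12 to 9.51 CPM) and those of dividing cells for 4 of 4 (3.57 to 6.20 against 18.6 to 21.9 CPM). Neuronal markers were lower for 4 of 7 (7176 to 7332 against 6634 to 6763 CPM), those of inhibitory neurons for 5 of 7 (2608 to 2858 against 2116 to 2377 CPM) and those of Cajal–Retzius cells were called for 0 of 3 tested of 5 (302 to 478 against 273 to 316 CPM). The part of these cells in the collagen differences was not tested.

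**Figure D4:**
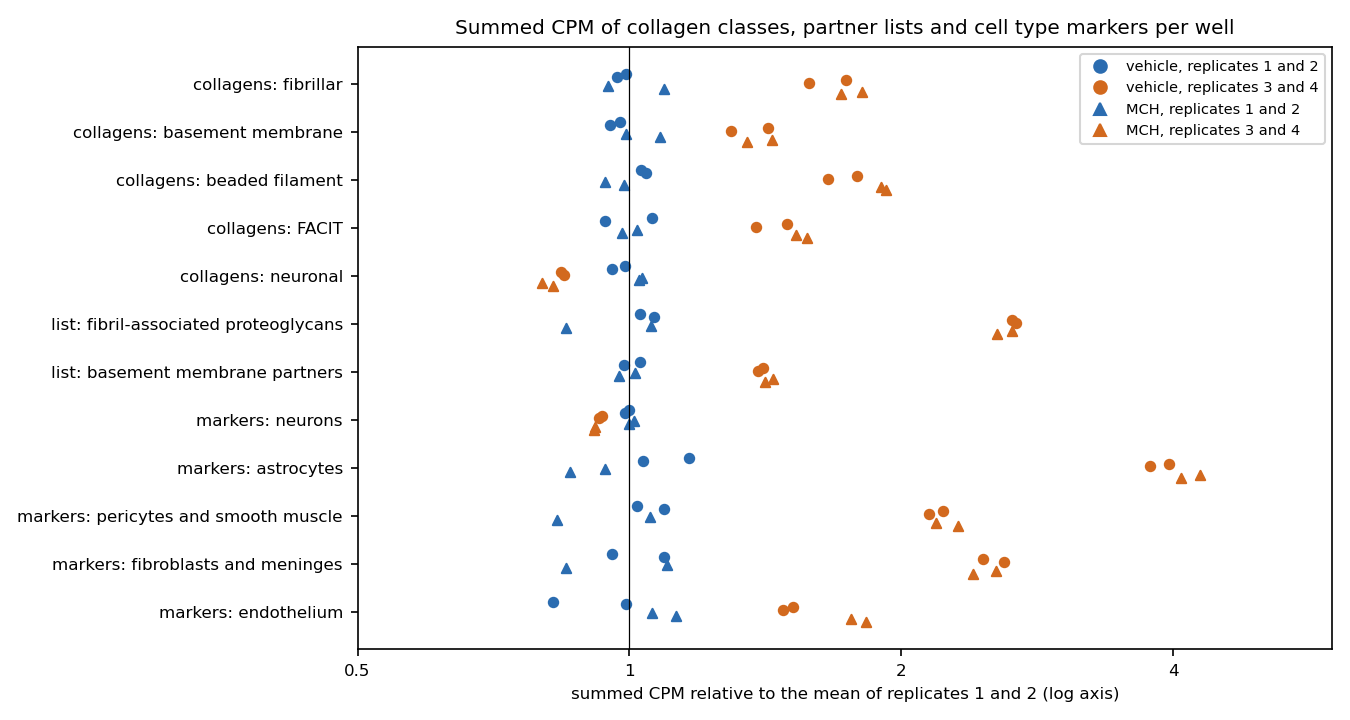
Summed CPM of 5 collagen classes, 2 lists of partner genes and 5 marker lists in each well, divided by the mean of the 4 wells of replicates 1 and 2, on a log axis, circles for vehicle and triangles for MCH. The fibrillar, basement membrane, beaded filament and FACIT sums of replicates 3 and 4 (orange) lie to the right of all wells of replicates 1 and 2 (blue), the neuronal collagens and neuronal markers lie to the left, and the astrocyte markers lie furthest to the right.

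Set side by side, the collagens other than the neuronal ones summed to 279 to 297 CPM in replicates 1 and 2 and to 393 to 430.1 in replicates 3 and 4. In TPM the same genes summed to 158.5 to 193.4 in replicates 1 and 2 and to 182.8 to 201.3 in replicates 3 and 4. The sides thus overlapped in TPM. *Col26a1*, with its 280-base transcript, stood at 82.0 to 112.1 TPM in replicates 1 and 2 and at 62.6 to 77.2 in replicates 3 and 4. The fibrillar sum went the other way without overlap, at 10.2 to 14.1 and 16.9 to 18.4 TPM. So did the basement membrane sum, at 24.6 to 29.1 and 36.3 to 41.3 TPM.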

How the data were processed

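RNA of 8 wells was sequenced as poly-A libraries and quantified by the authors with salmon, run through nf-core/rnaseq, against GRCm38. The authors deposited estimated counts per gene, without normalization, and, per transcript, the estimated counts and the TPM that salmon scaled for length and depth. Of the counts, 9.13% were not whole, as salmon divides reads that several transcripts share, and all were rounded. Identifiers were named from GENCODE vM21, which named 98.8% of the 45706 genes; the release the authors used is not given in the sources used here.

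Counts were tested in R 4.3.3 with edgeR 4.0.16 (TMM, filterByExpr by treatment with a minimum of 10 counts and 15 in total, robust quasi-likelihood F test, Benjamini–Hochberg adjustment over 14962 genes, threshold 0.05), and with limma 3.58.1 and DESeq2 1.42.0 as alternatives. A standard error is the log2 fold change over the square root of F. CPM use the TMM factors, and TPM of a gene are sums over its transcripts. Depth was 26083936 to 31844861 counts per well. The fits were also run on counts simulated from the means and spread fitted to these same wells, with known changes added. The outcome is not given here, and no result above rests on it.

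The collagen genes, the gene lists and the split of replicates 1 and 2 from 3 and 4 were chosen with earlier results of these data known. Values by well are given for collagen genes called in any comparison, the 3 most abundant tested genes of each class and neighbouring pairs, and from the other lists the 3 largest folds between the sides. List members called lower and the collagen genes not called were named after their values were seen. Replicate numbers are shared by the treatments: deviations of wells with the same number correlated at 0.445 to 0.545, of different numbers within a side at 0.475 to 0.521 and between sides at −0.548 to −0.438. All 4 same-number correlations exceeded 0.1, and the number was used as a block in an alternative fit. Different numbers within a side correlated to a like degree. The values therefore set the sides apart but do not show a pairing by number. Alternatives were another test, scaling, filter, a length offset, blocks and leaving out each well.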

Additional observations from a re-analysis of the deposited data

Results flagged for a closer look

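In 80 groups of 4 wells (40 genes in 2 treatments), 2 had a well far from the other 3, a rule that flags about 1 in 20 groups by chance when the wells are interchangeable, while here each treatment held 2 wells of each side. *Col10a1* stood at 1.20 CPM in vehicle-treated replicate 2 and at 0.599 to 0.669 CPM in the other vehicle-treated wells. *Col14a1*, a FACIT of tendon and skin, stood at 0.958 CPM in MCH-treated replicate 1 and at 0.632 to 0.676 CPM in the other MCH-treated wells. *Col10a1* had at most 35 counts in a well and *Col14a1* at most 30, and neither was called in any comparison.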

How the results depend on the processing

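The MCH comparison gave 0 collagen genes under every alternative run, the replicate block, the block on the sides, DESeq2 and limma voom included. The number called between the sides was 27 in DESeq2 and 27 with no treatment term, and 25 to 27 with 1 well left out. With an offset for the mean transcript length of each well it was 18 in place of 28, 16 of them shared. No share of all genes is given here for that fit, so the 18 cannot be set beside the 34.7% called without the offset. The log2 fold changes of the 12 genes that lost their calls were then 0.65 for *Col12a1*, 0.11 for *Col15a1*, 0.83 for *Col16a1*, −0.20 for *Col19a1*, 0.44 for *Col1a1*, 0.84 for *Col27a1*, 0.65 for *Col2a1*, 0.67 for *Col3a1*, 0.25 for *Col4a2*, 0.59 for *Col5a1*, 1.05 for *Col6a3* and 1.81 for *Col9a2*, with standard errors of 0.085 to 0.57. *Col26a1* and *Col20a1* were called with it only, and the sign turned for *Col26a1* and for *Col22a1*, *Col6a5* and *Col7a1*, which were called in neither fit. The cause was not tested. The interaction was called for 2 genes without a filter and for 0 to 1 with 1 well left out. With 1 well left out, the small MCH log2 fold changes changed sign for *Col25a1* (0.016, range −0.0384 to 0.083), *Col19a1* (0.034, range −0.0336 to 0.1129) and *Col6a1* (0.081, range −0.1099 to 0.2571), none of them called. At 5 counts 42 genes met the abundance rule and at 20 counts 38. The replicate block changed no call for the collagen genes. The 2 s.e. interval of the MCH effect lay within 1 log2 unit of 0 for 25 of 40 genes, and for 37 with the block on the sides.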
